A study of Mus musculus with 24 samples.

Results

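The 36 genes described here belong to the integrated stress response and the unfolded protein response. They were listed by name for their known roles, and where a gene had several probe sets, the brightest on average was read. Of the 36, 35 were among the 18193 genes measured, and Pycr1 was not analysed here. They were split by known function into an Atf4 branch of 19 measured genes and a chaperone branch of 16.

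When cells run short of amino acids, or when unfolded protein builds up in the endoplasmic reticulum (ER), kinases phosphorylate the translation factor eIF2. General translation then slows while the mRNA of Atf4, a transcription factor, is translated more. Atf4 switches on genes of amino acid synthesis and import and further regulators such as Ddit3 (CHOP). Unfolded protein in the ER also activates Atf6 and, through splicing by Ire1, Xbp1, and these factors raise chaperones such as Hspa5 (BiP). Amino acid shortage reaches the Atf4 branch without the chaperone branch, whereas ER stress can reach both. Endothelial cells secrete matrix and growth factors through the ER.

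Total RNA of cultured adult mouse retinal endothelial cells on a mixed C57Bl6/129 background was measured on 24 arrays, 3 per group in 8 groups. The cells came from animals of mixed gender that were wild type or Fz4-/-, that is, without frizzled-4, the receptor for the secreted protein Norrin. All 8 groups carried a temperature-sensitive SV40 large T antigen driven by the H2Kb promoter, which responds to gamma interferon. Cells were passaged at 33 °C on gelatin and taken to 37 °C without interferon for RNA. Each genotype was grown alone on gelatin or alone on Matrigel, a basement membrane extract, or together with human embryonic kidney 293 cells. For Matrigel, the cells were first starved for 24 hours in 1% serum, detached with trypsin and left on the gel for 6 hours in the same low serum, so Matrigel, starvation and replating cannot be told apart. The 293 cells either stably made Norrin or were a control line, and about equal parts of mouse and human RNA entered those arrays, per the labels. Mouse probe sets may therefore also read human transcripts there, and a difference between the 293 lines cannot be told apart from a response of the mouse cells. Nothing in the labels tells if replicates came from separate cultures, or how many lines stand behind a genotype, so p-values cover only the spread between arrays.

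All values are log2 intensities from RMA, which corrects the background, sets the arrays to a shared distribution and sums the probes of a set. A gene passed the test, or was called, where its limma p, adjusted by Benjamini-Hochberg over all 18193 genes, was below 0.05. A value after ± is the standard error (SE) of a difference unless it is named as an SD. With 3 arrays against 3, no exact permutation test of a single gene can give a two-sided p below 0.1, so only the model across all genes was used. The genotype and Matrigel comparisons of the single cultures share arrays. The array medians were 5.02 to 5.11 on the 12 single-culture arrays, 3.44 to 3.52 on the 6 wild type co-culture arrays and 3.21 to 3.31 on the 6 Fz4-/- ones. Genotype and array set cannot be told apart in co-culture, so levels of the genotypes are given there side by side only. Fzd4, the gene for frizzled-4, averaged 8.70 on gelatin in wild type against 5.06 in Fz4-/-, so it was lower where the labels say it is missing. The endothelial markers ranged from 8.61 to 11.6 over 10 genes in single culture, and the microglial markers from 2.75 to 5.89 over 5 genes. Mural markers reached 6.88, fibroblast markers 6.77, pigment epithelium markers 6.69 and glial and neuronal markers 5.88. In RNA of whole cultures, fewer cells of a type and less RNA per cell cannot be told apart.

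Promoter sequences of 8 members are printed here because the elements known for the Atf4 and the chaperone branch differ. RefSeq promoters on GRCm38.p6, from 250 bases before to 50 after the annotated start, were found for 33 of the 35 members, all but Hyou1 and Manf. The C/EBP-ATF element, which is bound by Atf4 with a C/EBP partner, was searched as TGATGNAA on both strands. It was present in 6 of 19 promoters of the Atf4 branch (Asns, Atf3, Chac1, Nupr1, Slc7a11 and Trib3), in 1 of 14 of the chaperone branch (Herpud1) and in 4.51% of 27025 genes. In the windows of 5 of these genes, which extend up to 25 bases on either side and stop at the start site, capitals mark the match. Each is written on the strand of the gene, so TTNCATCA is the same element in reverse.
Asns (chr6:7693210-7693257, minus strand): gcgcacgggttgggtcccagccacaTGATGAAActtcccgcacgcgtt
Atf3 (chr1:191183411-191183468, minus strand): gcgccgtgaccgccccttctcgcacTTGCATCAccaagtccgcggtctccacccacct
Chac1 (chr2:119351024-119351081, plus strand): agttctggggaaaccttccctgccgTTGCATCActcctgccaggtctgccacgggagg
Nupr1 (chr7:126625548-126625605, minus strand): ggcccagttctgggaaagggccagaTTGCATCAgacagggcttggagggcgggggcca
Slc7a11 (chr3:50443628-50443704, minus strand): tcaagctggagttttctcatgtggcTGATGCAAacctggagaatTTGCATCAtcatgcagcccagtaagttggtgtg

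The match began 23 bases before the start in Asns, 110 in Atf3 and in Nupr1, and 193 in Chac1. Slc7a11 held a pair of matches, beginning 66 and 47 bases before its start. The match in Trib3 lay after the start. The chaperone branch carried another element. The ER stress element, a site for Atf6 with NF-Y, was searched on both strands as CCAAT and CCACG with 9 bases between them. It was present in 6 of 14 chaperone promoters (Calr, Creld2, Dnajc3, Hsp90b1, Hspa5 and Pdia6), in 0 of 19 of the Atf4 branch and in 0.137% of genes. Herpud1 lacked it and instead held both the C/EBP-ATF element and the shorter ER stress element II, ATTGG and CCACG with 1 base between them, which 0.0444% of genes held. A further motif, the unfolded protein element TGACGTGG, was in none of the 33 members' promoters and in 0.714% of genes. Capitals mark the fixed letters of the ER stress element in Hspa5 and Calr, and both elements in Herpud1.
Hspa5 (chr2:34772000-34772068, plus strand): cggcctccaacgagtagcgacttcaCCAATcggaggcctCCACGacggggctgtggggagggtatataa
Calr (chr8:84847050-84847118, minus strand): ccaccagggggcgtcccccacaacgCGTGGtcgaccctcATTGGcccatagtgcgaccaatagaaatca
Herpud1 (chr8:94386292-94386412, plus strand): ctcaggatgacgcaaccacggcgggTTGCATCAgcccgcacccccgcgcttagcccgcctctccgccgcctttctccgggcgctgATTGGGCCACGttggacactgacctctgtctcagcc

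A match of letters is a description of the sequence and was not tested as a binding site.

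**Figure D1:**
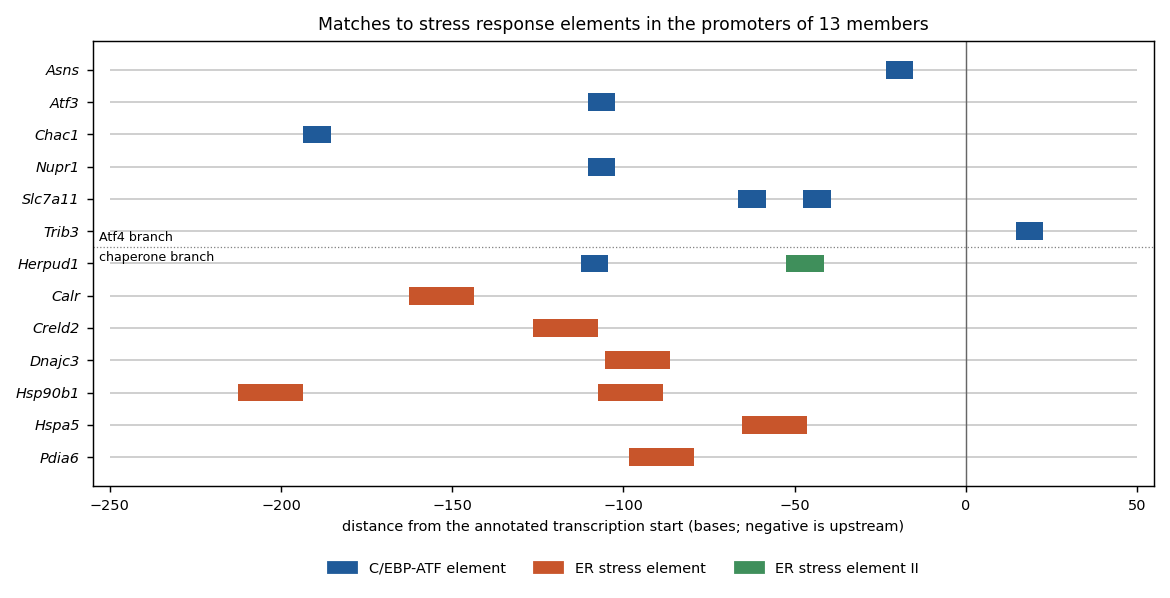
Positions of the matched elements (coloured bars) in the promoters of the 13 members with a match, from 250 bases before to 50 bases after the annotated start (vertical line). The C/EBP-ATF element lies in 6 genes of the Atf4 branch and in Herpud1, and the ER stress element in 6 genes of the chaperone branch.

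Norrin was the ligand under study, and its effect was read as Norrin-expressing minus control 293 co-culture within each genotype. Of 35 members, 7 fell in wild type cells and none rose (20.0%, against 9.57% of all genes called in either direction, 5.39% higher and 4.18% lower). All 7 were in the Atf4 branch, 7 of its 19 genes (36.8%), with a branch median of -0.28 log2 against -0.02 over all genes. In the chaperone branch 0 of 16 passed in limma, with 2 higher and 0 lower at an unadjusted p under 0.05 and a median of 0.05.

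Among the regulators, Atf3, a stress-induced transcription factor, read 6.98, 7.23 and 7.24 with control cells and 5.79, 5.90 and 6.22 with Norrin. It fell by 1.18 ± 0.13 log2 (SE, limma adjusted p = 7.39e-06), a 2.26-fold decrease. Nupr1, a small nuclear stress protein, read 7.65, 7.68 and 7.81 against 6.42, 6.81 and 6.86. All 3 Norrin arrays lay below all 3 controls for both genes. Nupr1 fell by 1.02 ± 0.12 (limma adjusted p = 2.18e-05). Ddit3, which encodes CHOP and is linked to cell death under lasting stress, read 6.76, 6.33 and 6.42 against 5.75, 5.62 and 5.69. Its Norrin arrays again lay below every control, with a fall of 0.82 ± 0.11 (limma adjusted p = 0.000109).

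Asns makes asparagine and is a classical Atf4 target. It read 8.32, 8.40 and 8.35 with control cells and 7.39, 7.65 and 7.60 with Norrin, so the groups were far apart beside their spread. It fell by 0.81 ± 0.10 (limma adjusted p = 4.86e-05), a 1.75-fold decrease. Ddit4, an inhibitor of mTOR signalling, read 7.54, 7.65 and 7.61 against 6.66, 6.92 and 7.12. It fell by 0.70 ± 0.12 (limma adjusted p = 0.000683). Mthfd2, a mitochondrial one-carbon enzyme, read 6.34, 6.33 and 6.15 against 5.21, 5.77 and 5.94, with replicate 1 of the Norrin group lowest. It fell by 0.63 ± 0.14 (limma adjusted p = 0.00765).

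Atf4 itself read 8.59, 8.73 and 8.76 with control cells and 8.47, 8.26 and 8.34 with Norrin, without overlap. The difference of -0.33 ± 0.10 was just past the threshold (limma adjusted p = 0.0427) and missed it with the replicate number as a block (0.0506). Of the other Atf4 probe sets, the one at a mean of 5.16 moved by 0.10 in the opposite direction. The call also missed the threshold without wild type control replicate 2 or 3, wild type Norrin replicate 2 or 3, or any 1 of the 6 Fz4-/- arrays, at adjusted p-values up to 0.157. Atf4 acts mainly through its translation, which arrays do not measure. Chac1, a glutathione-degrading enzyme, was at -0.38 ± 0.12 (limma adjusted p = 0.0597) and passed with the block (0.0348). Trib3, a pseudokinase that restrains Atf4 and CHOP, was at -0.44 ± 0.15 (0.0684).

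Phgdh, Psat1 and Psph, the enzymes that make serine from a glycolytic intermediate, were at -0.10, 0.15 and 0.08 and did not pass. Slc7a11, the cystine importer, read 2.42 to 2.69 in the wild type co-cultures with control cells. That is percentile 12.1 of all genes there, near the lowest values of these arrays. In the chaperone branch Hspa5, the main ER chaperone, read 10.59, 10.28 and 10.34 with control cells and 10.22, 10.29 and 10.24 with Norrin, which overlap. Its difference was -0.15 ± 0.11, that of Hsp90b1 -0.08 ± 0.14, that of Xbp1 -0.05 ± 0.11 and that of Herpud1 0.02 ± 0.15. The 2 chaperone genes with the largest differences were Creld2 at 0.31 and Manf at 0.29, neither past the threshold.

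In Fz4-/- cells, which lack the receptor, 2 of 35 members rose and none fell in limma (5.71%, against 0.456% of all genes in either direction, 0.214% higher and 0.242% lower). Both belong to the chaperone branch, whose 16 differences were all above 0, with a median of 0.22 against -0.02 over all genes. The arrays of the groups did not overlap for 11 of the 16, all higher with Norrin, a share of 68.8% against 9.64% of all genes. Other lists also lay mostly above 0 there: 12 of 13 genes of the translocon and signal peptidase (median 0.20), 12 of 13 of ER-associated degradation (0.14), 13 of 18 further ER folding genes (0.13) and 11 of 13 heat shock genes (0.14). In the Atf4 branch 0 of 19 passed in limma, with 2 higher and 0 lower at an unadjusted p under 0.05 and a median of 0.09.

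Hspa5 read 10.40, 10.26 and 10.47 with control cells and 10.97, 11.02 and 11.01 with Norrin. It rose by 0.63 ± 0.11 (limma adjusted p = 0.00857), a 1.54-fold increase. All 3 Norrin arrays lay above the controls and within 0.02 (SD) of each other. Manf, a secreted ER stress protein, read 7.88, 7.82 and 8.05 against 8.33, 8.45 and 8.46. It rose by 0.49 ± 0.11 (limma adjusted p = 0.0481). The call on Hspa5 missed the threshold without Fz4-/- control replicate 2, Fz4-/- Norrin replicate 2 or Fz4-/- Norrin replicate 3, at up to 0.078. The Hspa5 call also missed the threshold with the mean of its probe sets (0.49, limma adjusted p = 0.069) and with replicates 2 and 3 averaged (0.279). That on Manf missed it without replicate 2 or 3 of either wild type group or any 1 of the 6 Fz4-/- arrays, at up to 0.283, so that 0 to 2 members passed as single arrays were left out.

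The remaining chaperone genes gave smaller values below the threshold. Dnajc3, a co-chaperone that also restrains the eIF2 kinase Perk, was at 0.34 ± 0.15, Hsp90b1, the ER form of Hsp90, at 0.34 ± 0.14, and Calr, a calcium-binding lectin chaperone, at 0.28 ± 0.13. Xbp1 was at 0.22 ± 0.11 (limma adjusted p = 0.589). Herpud1, a member of the ER degradation machinery, was at 0.02 ± 0.15. Asns read 8.09, 8.19 and 8.31 with control cells and 8.43, 8.36 and 8.39 with Norrin, a difference of 0.20 ± 0.10 that did not pass (limma adjusted p = 0.639). Ddit3, Atf3, Atf4, Chac1 and Trib3 were at 0.07, 0.15, -0.004, -0.11 and 0.20.

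The test of the difference between genotypes, Norrin in Fz4-/- minus Norrin in wild type, called 6 of 35 members, all positive (17.1%, against 2.12% of all genes, 0.874% higher and 1.24% lower). In the Atf4 branch these were Atf3 (1.33 ± 0.18, limma adjusted p = 0.00043), Asns (1.01 ± 0.15, 0.000773), Ddit4 (0.99 ± 0.17, 0.00241), Ddit3 (0.89 ± 0.16, 0.00474) and Nupr1 (0.80 ± 0.17, 0.0181). In the chaperone branch it was Hspa5 (0.77 ± 0.15, limma adjusted p = 0.00838), where another probe set at a mean of 8.35 gave -0.27, and the mean of its probe sets did not pass (0.208). Atf4, Chac1, Trib3, Xbp1, Hsp90b1 and Herpud1 were at 0.33, 0.27, 0.64, 0.27, 0.41 and 0.0038 and did not pass. Mthfd2, at 0.76, passed with the replicate block. The call on Nupr1 missed the threshold without Fz4-/- control replicate 1 or 2 or Fz4-/- Norrin replicate 2, at up to 0.0621. The control levels themselves differed between the array sets for some of these genes. In control co-cultures Atf3 averaged 7.15 ± 0.15 (SD, n = 3) for wild type against 5.15 ± 0.18 for Fz4-/-, and Nupr1 7.71 ± 0.09 and 6.32 ± 0.13, whereas Ddit3 averaged 6.51 ± 0.23 and 6.38 ± 0.04 and Asns 8.35 ± 0.04 and 8.20 ± 0.11.

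Of the endothelial markers, 8 of 10 also rose with Norrin in wild type (80%, against 9.57% of all genes called), with a median of 0.81. In Fz4-/- none passed (median 0.23, 4 higher at an unadjusted p under 0.05 in limma), against 0.456% of all genes. The mean of the 10 markers was 6.04 to 6.25 with control cells and 6.70 to 7.06 with Norrin in wild type. Among the markers of other cells, Acta2 at 0.90 and Col3a1 at 0.95 rose, and Dcn at -2.91 and Notch3 at -0.46 fell. Their part in the result was not tested.

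**Figure D2:**
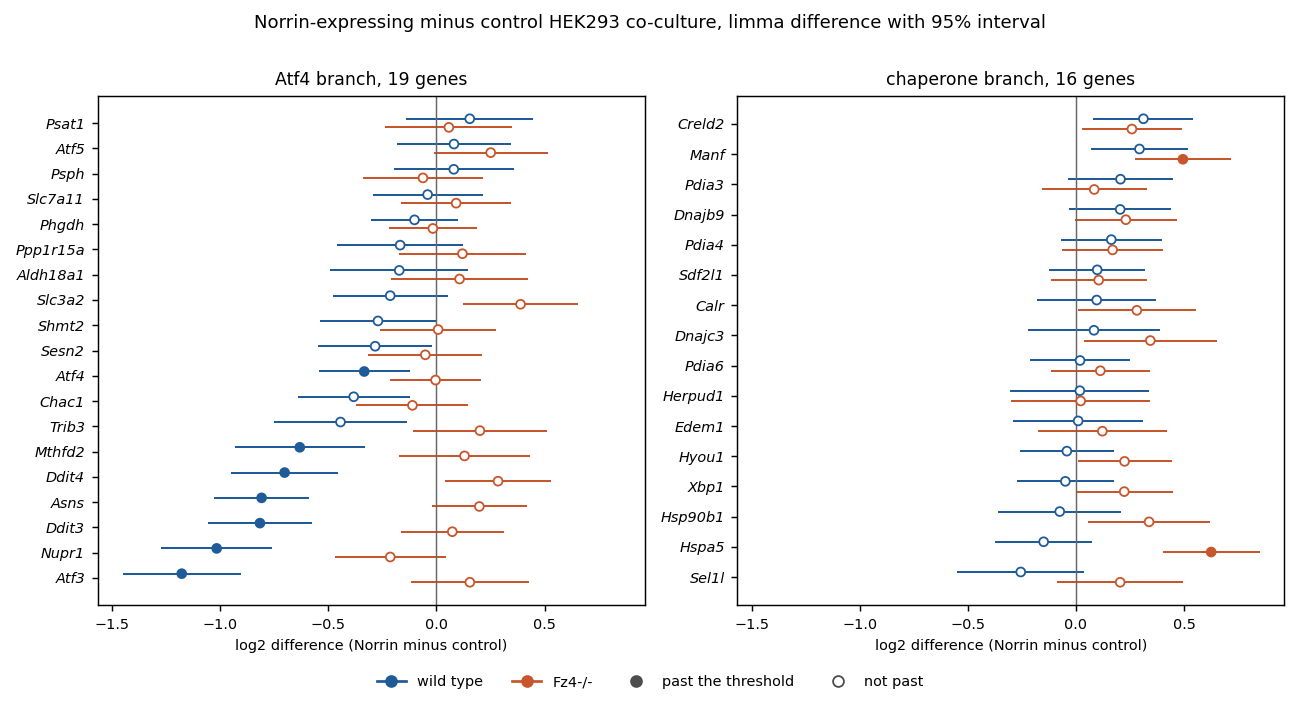
Difference between Norrin-expressing and control co-culture for each member (log2, points) with its 95% interval from limma (lines), wild type in blue and Fz4-/- in orange; filled points passed the threshold. The filled blue points are 7 genes of the Atf4 branch, all below 0, and the filled orange points are Hspa5 and Manf, both above 0.

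Matrigel was compared with gelatin within each genotype. In wild type, 1 member rose and 4 fell (14.3%, against 18.4% of all genes called, 6.71% higher and 11.7% lower), a share near that of all genes. In Fz4-/- cells, 1 rose and 8 fell (25.7%, against 19.7% of all genes, 7.91% higher and 11.8% lower). All 5 wild type calls and 8 of the 9 in Fz4-/- were in the Atf4 branch, where 8 of 19 passed in Fz4-/- (42.1%, median -0.57 against -0.05 over all genes) and 5 of 19 in wild type (26.3%, median -0.31). Every one of the 5 wild type calls was also called in Fz4-/- in the same direction, which is 55.6% of the calls there.

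Of the 7 enzymes of this branch, 4 fell in wild type and 6 in Fz4-/-. Asns read 10.33, 9.95 and 9.93 on gelatin and 9.46, 9.37 and 9.45 on Matrigel in wild type. The Fz4-/- arrays read 11.00, 10.35 and 10.35 on gelatin and 9.50, 9.65 and 9.58 on Matrigel. Replicate 1 on gelatin was the highest in each genotype, and no Matrigel array reached any gelatin array. Asns fell by 0.64 ± 0.16 in wild type (limma adjusted p = 0.0194) and by 0.99 ± 0.16 in Fz4-/- (0.00213). Psat1, the aminotransferase of serine synthesis, fell by 0.56 ± 0.17 (0.0443) and by 1.01 ± 0.17 (0.0026). In wild type the Asns call missed the threshold without wild type Matrigel replicate 2 or wild type gelatin replicate 1, at up to 0.0687. The Psat1 call there was lost without any 1 wild type Matrigel array, wild type gelatin replicate 1 or 3, Fz4-/- Matrigel replicate 2, or Fz4-/- gelatin replicate 2 or 3, at up to 0.139.

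Aldh18a1, which begins proline synthesis, fell by 0.46 ± 0.11 in wild type (limma adjusted p = 0.0165) and by 0.76 ± 0.11 in Fz4-/- (0.0011). Shmt2, the mitochondrial enzyme that splits serine to glycine, fell by 0.52 ± 0.14 (0.0241) and by 0.75 ± 0.14 (0.00399). Without wild type Matrigel replicate 2 or wild type gelatin replicate 1 neither wild type call remained, and that on Shmt2 was also lost without wild type Matrigel replicate 1 or wild type gelatin replicate 2 or 3 (adjusted p up to 0.0789). The remaining enzyme calls were made in Fz4-/- cells. Psph, the last step of serine synthesis, read 9.80, 9.29 and 9.30 on gelatin and 8.44, 8.70 and 8.43 on Matrigel and fell by 0.94 ± 0.15 (limma adjusted p = 0.00175). Mthfd2 read 10.06, 9.62 and 9.64 on gelatin and 7.87, 8.91 and 8.86 on Matrigel. Replicate 1 of the Matrigel group stood lowest, and Mthfd2 fell by 1.23 ± 0.23 (limma adjusted p = 0.00445).

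Chac1 gave the largest fall of a member on Matrigel. In Fz4-/- cells it read 9.75, 8.82 and 8.85 on gelatin and 7.68, 7.83 and 7.73 on Matrigel, a fall of 1.39 ± 0.24 (limma adjusted p = 0.00269) and 2.63-fold. In wild type it read 9.57, 8.90 and 8.84 on gelatin and 8.75, 8.63 and 8.43 on Matrigel. That difference of -0.50 ± 0.24 did not pass (limma adjusted p = 0.179). Slc7a11, which imports cystine in exchange for glutamate, went the other way. It read 5.79, 5.77 and 5.90 on gelatin and 7.76, 6.99 and 6.67 on Matrigel in wild type and rose by 1.32 ± 0.27 (limma adjusted p = 0.00645). The Fz4-/- arrays read 5.46, 5.25 and 5.38 against 7.19, 6.27 and 6.35 and rose by 1.24 ± 0.27 (0.00816). Its partner subunit Slc3a2 was at -0.07 and -0.34, neither past the threshold.

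The regulators of the branch did not pass on Matrigel in either genotype. Atf4 was at -0.32 ± 0.22 in wild type and -0.58 ± 0.22 in Fz4-/- (limma adjusted p = 0.362 and 0.0922). Ddit3 was at 0.20 and -0.02, and Trib3 at -0.06 and -0.26. In the chaperone branch 0 of 16 passed in wild type, with 1 higher and 1 lower at an unadjusted p under 0.05 in limma. In Fz4-/- cells 1 of 16 fell, Herpud1, which read 9.46, 8.94 and 8.80 on gelatin and 8.27, 8.32 and 8.56 on Matrigel. It fell by 0.69 ± 0.18 (limma adjusted p = 0.0207), against 0.01 ± 0.18 in wild type. The call was lost without Fz4-/- Matrigel replicate 1 or 2 or Fz4-/- gelatin replicate 1, at adjusted p-values up to 0.0641. Herpud1 is the chaperone gene whose promoter holds the C/EBP-ATF element. Of the other genes with this element, Asns and Chac1 fell in Fz4-/- cells, Slc7a11 rose, and Atf3, Nupr1 and Trib3 were not called. The part of the element was not tested. Hspa5 was at -0.12 and -0.22, Hsp90b1 at 0.04 and -0.09 and Xbp1 at -0.20 and -0.24, none past the threshold.

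With the replicate number as a block, 10 members passed in wild type (1 higher, 9 lower) and 17 in Fz4-/- (1 higher, 16 lower), against 26.4% and 28.2% of all genes. All 5 and all 9 calls made without the block were among them, though the labels do not say that the numbers pair arrays. Atf4 was then lower in both (limma adjusted p = 0.0183 and 0.00098), as was Xbp1 (0.0466 and 0.0203). The wild type count was 1 without wild type Matrigel replicate 2 or wild type gelatin replicate 1, and 3 without wild type Matrigel replicate 1 or gelatin replicate 3.

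Of the 10 endothelial markers, 2 rose on Matrigel in each genotype, with Tek at 0.80 in wild type and 0.98 in Fz4-/-. That is 20%, near the 18.4% and 19.7% of all genes called. Of the 8 mural markers, 3 fell in each (37.5%), with Acta2 at -0.93 and -1.80. Their part in the results was not tested.

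A difference between genotypes in the response to Matrigel was not found: 0 of 35 members passed in limma, against 0.0165% of all genes (0.0055% higher, 0.011% lower). At an unadjusted p under 0.05, 0 were higher and 3 lower in Fz4-/-: Chac1 (-0.89 ± 0.34), Psph (-0.54) and Herpud1 (-0.70 ± 0.25). Atf4, Ddit3, Asns and Trib3 were at -0.26, -0.22, -0.35 and -0.20, and Hspa5, Xbp1 and Hsp90b1 at -0.11, -0.04 and -0.13. The 95% interval of the difference ran from -1.65 to -0.14 for Chac1 and from -0.86 to 0.16 for Asns, so a p that missed the threshold does not show equal responses.

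**Figure D3:**
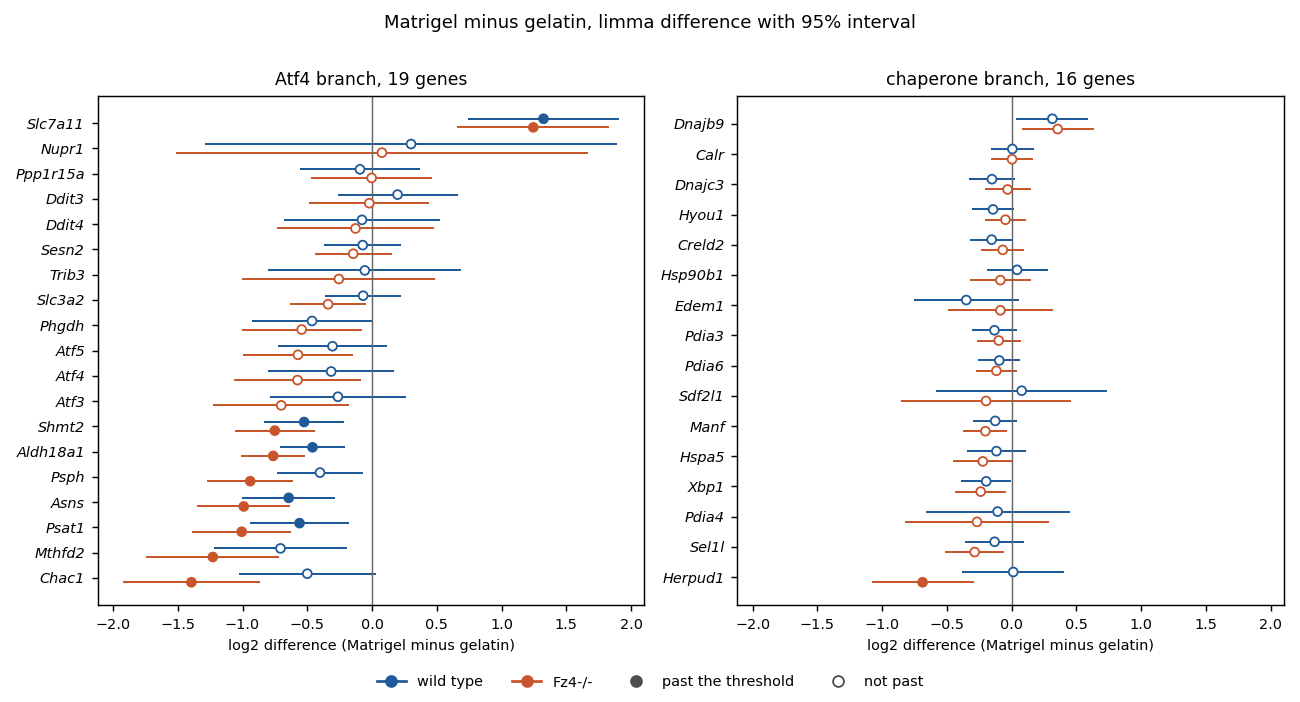
Difference between Matrigel and gelatin for each member (log2, points) with its 95% interval from limma (lines), wild type in blue and Fz4-/- in orange; filled points passed the threshold. Asns, Psat1, Shmt2 and Aldh18a1 passed below 0 in both genotypes, and Slc7a11 above 0 in both.

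The genotypes were compared in single culture. On gelatin, 1 member was higher and 3 lower in Fz4-/- (11.4%, against 14.9% of all genes, 7.21% higher and 7.73% lower). On Matrigel, 1 was higher and 6 lower (20.0%, against 15.7%, 6.91% higher and 8.77% lower). Neither share stood far from that of all genes. All 4 genes called on gelatin were called in the same direction on Matrigel (57.1% of the calls there). The share of all genes called on both was not computed. The groups of these comparisons share no array, but both came from the same fit and share each gene's residual variance. Deviations of arrays with the same replicate number also correlated across substrates, at 0.366 to 0.718 in wild type and 0.403 to 0.661 in Fz4-/-. The Matrigel calls are therefore not an independent repeat of those on gelatin.

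Trib3 and Ddit3, both targets of Atf4, went opposite ways. Trib3 read 7.82, 6.99 and 6.92 in wild type and 9.63, 8.50 and 8.40 in Fz4-/- cells on gelatin. Replicate 1 was highest in each group, and every Fz4-/- array lay above every wild type array. Trib3 was higher in Fz4-/- by 1.60 ± 0.34 on gelatin (limma adjusted p = 0.00816), 3.03-fold, and by 1.40 ± 0.34 on Matrigel (0.016). Ddit3 read 8.12, 8.78 and 8.79 in wild type and 7.74, 7.70 and 7.57 in Fz4-/- on gelatin. On Matrigel it read 8.25, 9.02 and 9.01 against 7.72, 7.61 and 7.61. Here replicate 1 of wild type was the lowest of its group, and the groups did not overlap on either substrate. Ddit3 fell by 0.89 ± 0.21 on gelatin (limma adjusted p = 0.0146) and by 1.11 ± 0.21 on Matrigel (0.00406). The Ddit3 call on gelatin missed the threshold without Fz4-/- gelatin replicate 3 or wild type gelatin replicate 2 or 3, at up to 0.0657. On Matrigel the Trib3 call missed the threshold without Fz4-/- Matrigel replicate 1 (0.0624) or wild type Matrigel replicate 2 (0.0721).

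Atf4 was at 0.44 ± 0.22 on gelatin and 0.18 ± 0.22 on Matrigel, and Asns at 0.49 ± 0.16 and 0.15 ± 0.16, none past the threshold (limma adjusted p = 0.0678 for Asns on gelatin). With the replicate block both passed on gelatin (0.00336 for Atf4 and 0.0283 for Asns), where 7 members then passed, 3 higher and 4 lower, against 22.7% of all genes. On Matrigel, Chac1 read 8.75, 8.63 and 8.43 in wild type and 7.68, 7.83 and 7.73 in Fz4-/-, without overlap. It was at -0.86 ± 0.24 there (limma adjusted p = 0.0332) and at 0.04 ± 0.24 on gelatin, and the Matrigel call missed the threshold without any 1 of the 6 Matrigel arrays, at up to 0.0942. Psph fell by 0.79 ± 0.15 on Matrigel (limma adjusted p = 0.00405).

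Nupr1 was not called, since its wild type arrays split. They read 5.96, 8.69 and 8.63 on gelatin and 6.41, 8.84 and 8.93 on Matrigel. The Fz4-/- arrays read 9.52, 9.08 and 9.13 and 9.27, 9.34 and 9.34. Replicate 1 of wild type stood apart on both substrates, and the Fz4-/- arrays lay above all wild type arrays. The differences were 1.48 and 1.26.

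In the chaperone branch, 2 of 16 were lower in Fz4-/- on gelatin (12.5%) and 3 on Matrigel (18.8%), and none was higher. Of all genes, 14.9% and 15.7% were called, 7.73% and 8.77% lower, so the shares called were near those of all genes. The medians of the branch were -0.11 and -0.14. Calr read 12.18, 12.05 and 12.18 in wild type and 11.85, 11.91 and 11.88 in Fz4-/- on gelatin, and it fell by 0.26 ± 0.07 (limma adjusted p = 0.0391). Manf read 11.07, 10.96 and 10.94 against 10.64, 10.77 and 10.69 and fell by 0.29 ± 0.08 (0.0254). Neither gene's arrays overlapped. The Calr call was lost without any 1 Fz4-/- gelatin array, wild type gelatin replicate 1 or 3, Fz4-/- Matrigel replicate 2 or 3, or wild type Matrigel replicate 3 (up to 0.128), and the Manf call without any 1 wild type gelatin array or Fz4-/- gelatin replicate 1 or 3 (up to 0.0824). On Matrigel, Manf fell by 0.37 ± 0.08 (limma adjusted p = 0.00738) and Calr by 0.26 ± 0.07 (0.0364). Herpud1 read 9.16, 9.25 and 9.21 in wild type and 8.27, 8.32 and 8.56 in Fz4-/- on Matrigel and fell by 0.83 ± 0.18 (0.009). On gelatin Herpud1 was at -0.13 and did not pass (limma adjusted p = 0.738). On Matrigel the Calr call was lost without replicate 2 or 3 of any group but wild type on gelatin, at up to 0.139. With each array centred on its median, the Calr calls on both substrates and both the Manf calls missed the threshold (adjusted p from 0.0579 to 0.255), and 4 of the 7 calls on Matrigel remained. Hspa5 was at -0.19 ± 0.10 and -0.30 ± 0.10, Hsp90b1 at -0.12 and -0.24, and Xbp1 at 0.17 and 0.13, none past the threshold. With the replicate block Hspa5 passed on Matrigel (limma adjusted p = 0.0421).

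Of the 19 cell cycle genes measured, 7 were lower in Fz4-/- on gelatin and 6 on Matrigel, with medians of -1.49 and -1.65. These are 36.8% and 31.6%, against 14.9% and 15.7% of all genes called. Their mean was 9.87 to 10.07 on the wild type gelatin arrays and 7.67, 9.23 and 9.22 on the Fz4-/- ones. On Matrigel it was 9.96 to 10.13 in wild type and 7.80, 9.17 and 9.16 in Fz4-/-. Replicate 1 of Fz4-/- thus had the lowest cell cycle mean on both substrates. On gelatin it was also higher than the mean of replicates 2 and 3 in 16 of the 19 Atf4 branch genes (median 0.43, Trib3 by 1.18). The part of this array in the genotype results was not tested beyond leaving it out, which kept 2 of the 4 calls on gelatin. The count on gelatin was 1 without Fz4-/- replicate 3 or wild type replicate 3, and 2 without wild type replicate 2. On Matrigel it was 4 without wild type replicate 2. Of the other markers, Thy1 was higher in Fz4-/- by 4.32 and 3.91, and Tek, an endothelial receptor, was at 0.67 and 0.84. Of the 8 mural markers, 2 were higher and 1 lower on gelatin, and 1 was higher and 1 lower on Matrigel. The lower one was Notch3, at -1.54 and -2.15. Tagln was higher on both substrates, and Acta2 passed above 0 on gelatin only. Pdgfra, a fibroblast marker, was lower on both, and Best1, a pigment epithelium marker, was higher on both. Their part in the results was not tested.

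**Figure D4:**
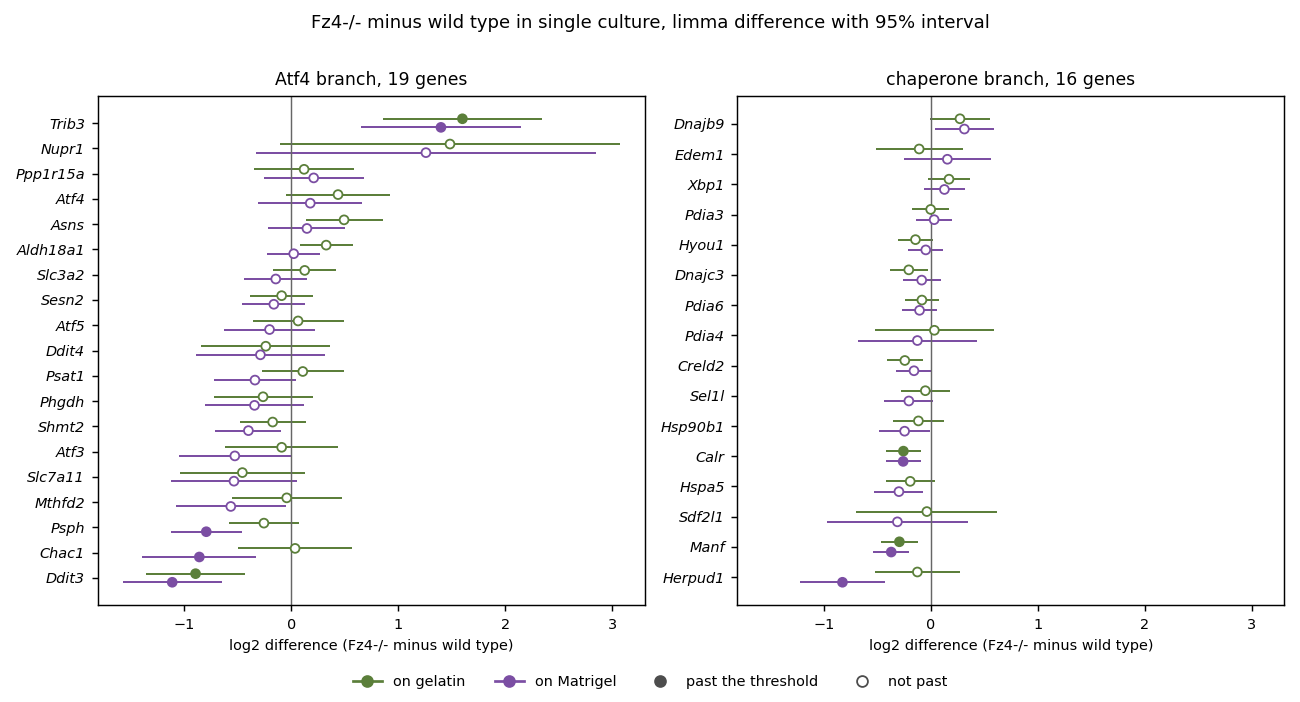
Difference between Fz4-/- and wild type single cultures for each member (log2, points) with its 95% interval from limma (lines), on gelatin in green and on Matrigel in purple; filled points passed the threshold. Trib3 passed above 0 and Ddit3, Calr and Manf below 0 on both substrates; the interval of Nupr1 is the widest.

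The spread between arrays of a group also set the branches apart. In the single cultures the residual SD of limma had a median of 0.298 log2 in the Atf4 branch and 0.109 in the chaperone branch, against 0.147 over all genes, and 11 of 19 Atf4 branch genes lay above the 90th percentile of genes, against 2 of 16. In the co-cultures the medians were 0.156 and 0.117, against 0.152 over all genes, and none lay above that percentile. In each single-culture group replicate 1 stood apart from replicates 2 and 3, which resembled each other more. With those 2 arrays averaged into 1 sample, 0 members passed for genotype on gelatin, genotype on Matrigel or Matrigel in wild type, and 5 for Matrigel in Fz4-/- (Asns, Chac1, Psat1, Psph and Aldh18a1). The shares of all genes were then 3.67%, 4.05%, 3.16% and 3.91%, so 0 of 35 was near the background in the first 3. Replicate 1 also stood apart in the wild type co-cultures. With control cells the SD of differences over all genes was 0.299 and 0.302 from replicate 1, against 0.193 between replicates 2 and 3. With Norrin these were 0.309, 0.302 and 0.191. Averaging kept 6 of the 7 members called for Norrin in wild type, against 3.8% of all genes.

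Some members passed in none of the 8 comparisons without the replicate block, and the share of all genes that did so was not computed. In the Atf4 branch these were 5 of 19, with differences between -0.57 and 0.60: Atf5, a stress-induced factor of the same family, Phgdh, Slc3a2, Sesn2, a leucine sensor that restrains mTOR, and Ppp1r15a, which brings a phosphatase to eIF2. In the chaperone branch they were 12 of 16, with differences between -0.35 and 0.46. These included Xbp1, Hsp90b1, the disulfide isomerases Pdia3, Pdia4 and Pdia6, the chaperones Hyou1 and Sdf2l1, the co-chaperones Dnajb9 and Dnajc3, Edem1 and Sel1l of ER-associated degradation, and Creld2. With the block, 3 of these 5 and 5 of these 12 passed in some comparison, all lower. Atf5 and Phgdh passed on Matrigel in both genotypes, Slc3a2, Pdia4 and Sel1l on Matrigel in Fz4-/-, Xbp1 on Matrigel in both, Edem1 on Matrigel in wild type, and Creld2 in Fz4-/- against wild type on gelatin.

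**Figure D5:**
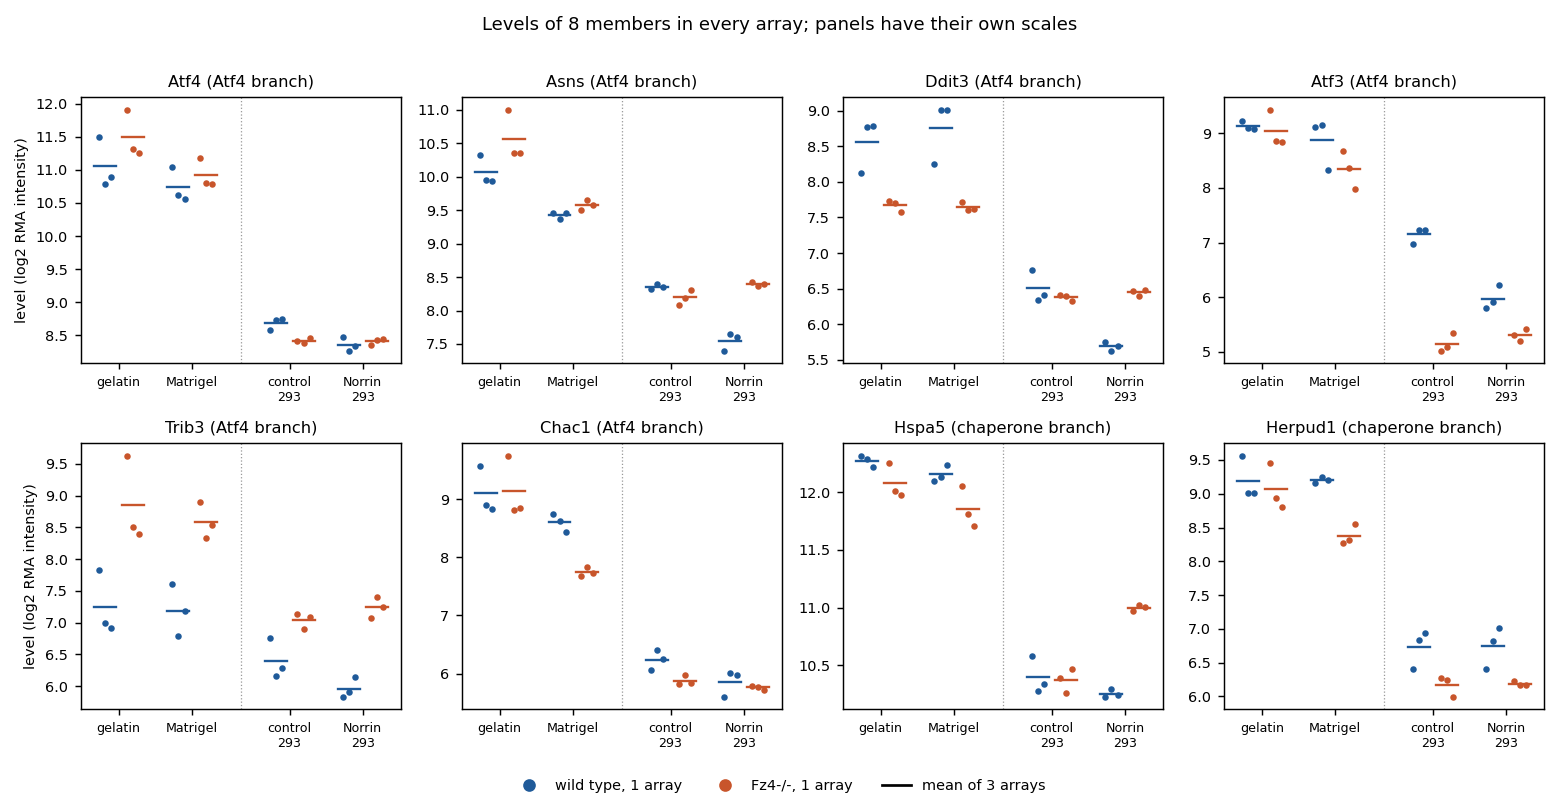
Level of 8 members on every array (points, log2 intensity) and group means (bars), wild type in blue and Fz4-/- in orange, each panel on its own scale; the dotted line parts single cultures from co-cultures, whose values are not on a shared scale. Asns, Ddit3 and Atf3 are lower with Norrin in wild type, and Hspa5 is higher with Norrin in Fz4-/-.

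Other genes of the same pathways were taken from lists of known function. On Matrigel in Fz4-/- cells, 12 of 18 tRNA synthetases and 11 of 20 genes of amino acid transport and metabolism fell and none rose. These are 66.7% and 55%, against 19.7% of all genes called. The largest falls among the synthetases, which charge tRNAs with amino acids, were Iars at -0.83 ± 0.10, Tars at -0.74 ± 0.15 and Gars at -0.73 ± 0.12. Among the transporters Slc7a5, the leucine carrier, was at -1.46 ± 0.25, Slc7a1 at -1.16 ± 0.11 and Slc1a4 at -1.11 ± 0.22. In wild type 4 of 18 and 8 of 20 fell (22.2% and 40%, against 18.4% of all genes called) and none rose. Iars was at -0.63 ± 0.10 and Bcat1, which breaks down branched-chain amino acids, at -0.93 ± 0.17. By contrast, 0 of 13 genes of ER-associated degradation passed in either genotype, with 2 and 1 lower at an unadjusted p under 0.05 in limma. Of 18 further ER folding genes, 0 passed in wild type and 1 rose in Fz4-/- (Ero1b, 0.46 ± 0.14).

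With Norrin in wild type, 5 of 18 synthetases fell and 1 rose (33.3%, against 9.57% of all genes called). Eprs was at -0.57 ± 0.13 and Sars at -0.54 ± 0.11, and Wars, the tryptophan enzyme, rose by 0.71 ± 0.13. Of the 20 amino acid genes, 3 fell, with Eif4ebp1, a brake on translation, at -0.67 ± 0.12, and Slc38a2 rose by 0.61 ± 0.11. Among 12 sensors and partner factors of both responses, Cebpb, a C/EBP partner of Atf4, fell by 1.19 ± 0.14 (limma adjusted p = 2.22e-05), and Mbtps1, the protease that activates Atf6, rose by 0.68 ± 0.12. The genotypes differed for Cebpb by 0.93 ± 0.20 (limma adjusted p = 0.0189) and for Eprs by 0.85 ± 0.19 (0.023). Folding genes outside the chaperone branch moved both ways in wild type. Of 18, 3 rose, led by Txndc5 at 1.62 ± 0.18, a disulfide isomerase, and 2 fell, led by Dnajc1 at -0.90 ± 0.14. Of 13 cytosolic heat shock genes, 5 rose, led by Hsph1, an Hsp70 partner, at 2.31 ± 0.13, and Hspb1 fell by 0.41 ± 0.11 (limma adjusted p = 0.0252). In Fz4-/- cells Hsph1 rose by 0.73 ± 0.13 (limma adjusted p = 0.00949) and was the only 1 of the 107 entries on the 7 further pathway lists to pass.

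Between genotypes, 19 of the 107 entries on these lists passed on gelatin (8 higher, 11 lower in Fz4-/-) and 19 on Matrigel (7 higher, 12 lower). Of all genes, 14.9% and 15.7% were called in these comparisons. Of the 18 further ER folding genes, 1 was higher and 3 lower on gelatin, with Uggt1, a sensor of misfolded glycoproteins, at 0.41 ± 0.11 and Fkbp2 at -0.59 ± 0.15, and 1 was higher and 1 lower on Matrigel. Of the 13 heat shock genes, 3 were higher and 1 lower on each substrate, with Hsph1 at 1.05 ± 0.10 and 0.85 ± 0.10 and Dnajb1 at -0.51 ± 0.09 and -0.54 ± 0.09. Of the 13 genes of ER-associated degradation, 1 was higher on gelatin and 2 on Matrigel. Of the sensors, Eif2ak2, the eIF2 kinase activated by double-stranded RNA, was at -1.13 ± 0.08 in Fz4-/- on gelatin and -0.88 ± 0.08 on Matrigel (limma adjusted p = 1.76e-06 and 1.43e-05). Of the amino acid genes, 2 were higher and 4 lower on gelatin and 1 higher and 4 lower on Matrigel, with Slc38a1 at -1.29 ± 0.11 and -1.27 ± 0.11. Slc7a5 was at -1.16 ± 0.25 on Matrigel, and Cth, the last enzyme of cysteine synthesis, at -1.69 ± 0.49. Of the synthetases, 1 was lower on gelatin and 4 on Matrigel, with Aars at -0.58 ± 0.14. Of 13 genes of the translocon and signal peptidase, through which proteins enter the ER, 1 was lower on each substrate, and on Matrigel 1 fell in wild type and 2 in Fz4-/-.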

How the data were processed

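The deposited values are log2 intensities of 45101 probe sets on 24 arrays, made by the authors with RMA, per the submitters' processing notes. Its version, and which arrays were normalized together, are not given in the sources used here. After leaving out 64 control probe sets, 34945 had 1 gene symbol, 932 several and 9160 none, per the platform annotation, and 34741 of the first kind matched a RefSeq gene of GRCm38.p6. Each of the 18193 genes was read from its brightest probe set, by the mean of the 24 arrays. The members have 78 probe sets, and 24 members have more than 1.

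The 12 single-culture arrays and the 12 co-culture arrays were fitted apart with limma 3.58.1 (R 4.3.3, lmFit and eBayes, 1 mean per group, 8 residual degrees of freedom). P-values were adjusted over all genes by Benjamini-Hochberg, with 0.05 as the threshold. Promoter elements were searched with textbook consensus letters. The fit was run on simulated data with independent noise on each array. Such noise lacks the closeness of replicates 2 and 3, so the run cannot show how p-values behave under it. Tables and figures used pandas 2.3.3 and matplotlib 3.10.9. The members, their branches and roles, the other lists and the alternatives were chosen with earlier results of these data known.

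Named in every comparison were Atf4, Ddit3, Asns, Chac1, Trib3, Hspa5, Xbp1, Hsp90b1 and Herpud1. Also named were members past the threshold, at most 6 rises and 6 falls per branch, and of the other lists at most 3 of each. Further members below the threshold were picked after their values were seen.

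The labels number the replicates 1 to 3 in each group but do not say what a number shares. The correlation of deviations between arrays of the same number was 0.243 to 0.405 for genotype on gelatin, 0.254 to 0.400 on Matrigel, 0.366 to 0.718 for Matrigel in wild type, 0.403 to 0.661 in Fz4-/- and 0.100 to 0.361 for Norrin in wild type. The rule took numbers as pairs where the lowest correlation was above 0.1, which Norrin in wild type only just met. The numbers were taken as pairs there only in the replicate block, which is an alternative. For Matrigel in wild type only 2 of the arrays compared correlated best with their own number, and 3 in Fz4-/-. Calls with the block therefore do not rest on known pairs. The main fits had no block. The correlation was -0.186 to 0.0060 for Norrin in Fz4-/-, where the numbers were not taken as pairs. Alternatives were quantile normalization, median centring, other choices of probe set, a filter on low values, other sets of arrays, a trended variance, the replicate block, and arrays averaged or left out.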

Additional observations from a re-analysis of the deposited data

Results flagged for a closer look

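The effect of Norrin differed between the genotypes for 6 members by the limma test of the difference itself, given as Norrin in Fz4-/- minus Norrin in wild type on the log2 scale. The difference was 1.33 for Atf3, 1.01 for Asns, 0.99 for Ddit4, 0.89 for Ddit3 and 0.80 for Nupr1. In these 5 genes of the Atf4 branch all 3 wild type Norrin arrays lay below all 3 controls. For Hspa5, of the chaperone branch, the difference was 0.77, and here all 3 Fz4-/- Norrin arrays lay above all 3 controls. These genes were picked by the test on the same arrays, so the lack of overlap adds no separate support. Genotype and array set cannot be told apart in co-culture.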

How the results depend on the processing

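No difference of a named member changed sign past the threshold under any alternative tried. Of single-member results, 1983 kept their side of the threshold, 137 lost a call and 33 gained one. For genotype on gelatin, against 4 members, 2 passed with probe sets without suffixes, 7 with the replicate block, 0 where replicates 2 and 3 were averaged, and 11 with replicate 1 of every group left out. The share of all genes, 14.9% in the report, moved with them, to 22.7% with the block, 3.67% averaged and 27.0% without replicate 1. For genotype on Matrigel, against 7, these were 4 with median centring, 0 averaged and 17 without replicate 1 (19.8%, 4.05% and 26.7% of all genes, from 15.7%). For Matrigel in wild type, against 5, they were 3 among genes above the median level, 10 with the block, 0 averaged and 14 without replicate 1 (13.6%, 26.4%, 3.16% and 28.0% of all genes, from 18.4%). For Matrigel in Fz4-/-, against 9, they were 14 with all 24 arrays in 1 fit, 17 with the block, 5 averaged and 17 without replicate 1 (20.2%, 28.2%, 3.91% and 30.2%, from 19.7%). For Norrin in Fz4-/-, against 2, they were 1 with quantile normalization, 1 with the mean of probe sets, 0 with probe sets without suffixes (where Hspa5 has none), 0 averaged and 1 without replicate 1 (0.522%, 0.434%, 0.313%, 0.055% and 0.649% of all genes, from 0.456%). For genotype by Norrin, against 6, they were 3 with all 24 arrays and 2 averaged (1.53% and 0.495% of all genes, from 2.12%). The cause of these changes was not tested. Leaving out single arrays gave 1 to 5, 4 to 7, 1 to 7 and 8 to 11 members for genotype on gelatin, genotype on Matrigel, Matrigel in wild type and Matrigel in Fz4-/-. It gave 0 for genotype by Matrigel, 6 to 10 for Norrin in wild type, 0 to 2 for Norrin in Fz4-/- and 5 to 7 for genotype by Norrin. For Norrin in Fz4-/-, where the numbers pair no samples and 0 of 6 arrays correlated best with their own number, the block gave 2 members. The arrays that did so were 2 of 6 for Matrigel in wild type and 3 for Matrigel in Fz4-/-. They were 5 for genotype on Matrigel, and 4 each for genotype on gelatin and Norrin in wild type. The number of arrays limits the precision.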
